A study of Mus musculus with 8 samples.

Results

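Sinusoidal and vascular endothelial genes were followed in livers of WT and LXRDKO mice by RNA-Seq. The 41 genes were chosen by symbol from a list of receptors, secreted factors, junction proteins and transcription factors of hepatic endothelium. All 41 were found among the 25010 genes measured. They were chosen with earlier results of these data known, so their shares beside all genes are a description. Each group had 2 mice on a C57BL/6 background, 8 weeks old and fasted for 4 to 6 h, with 1 library from the left lobe of each liver. LXRDKO mice lack both liver X receptors, LXRα (Nr1h3) and LXRβ (Nr1h2), in the whole body, so hepatocytes, endothelial cells, Kupffer cells and stellate cells all carried the deletions. The tissue was whole liver, in which fewer endothelial cells and less RNA per endothelial cell cannot be told apart.

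Liver sinusoids are lined by an unusual endothelium. Its cells are pierced by open pores, rest on little basement membrane, and clear proteins, immune complexes and DNA from the blood through scavenger receptors. They respond to VEGF and angiopoietins, and they send BMP and Wnt signals to hepatocytes, which set iron hormone synthesis and the division of labor along the lobule. LXRs are sterol-activated nuclear receptors that bind DNA with RXR, and they are known in liver mainly for control of lipid genes and of Kupffer cell identity.

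Read totals on genes lay between 55772659 and 72842744 per liver. Nr1h3 served as a check of the labels, at 5785 and 5322 normalized counts in WT livers against 1712 and 1826 in LXRDKO livers. A normalized count is the number of reads on a gene divided by the size factor of its library. Nr1h2 stood at 2987 and 3110 in WT against 925 and 1003 in LXRDKO. Reads on the genes remained at 31.9% and 31.6% of WT. The counts are per gene and do not separate the deleted exons. Endothelial RNA was looked for with defining markers that are themselves among the 41 genes, which is not a separate check of the tissue label. The 5 markers of sinusoidal endothelium (Stab2, Clec4g, Oit3, Gpr182 and Dnase1l3) and the 5 of endothelium in general (Kdr, Cdh5, Pecam1, Tie1 and Egfl7) were detected in all 4 livers. The fewest reads that any of the 41 genes had in a library were 34.

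The upstream sequences of 4 genes are shown because all 4 encode surface receptors of endothelium, of which Kdr, Flt1 and Flt4 were lower in LXRDKO livers while Eng overlapped between genotypes. Each line gives the 250 bases before the RefSeq transcription start, 5′ to 3′ on the strand of the gene, in the GRCm38.p6 assembly. Windows were found for 23 of the 41 genes. The Kdr window is chr5:75978456-75978705 on the minus strand, and the Flt1 window is chr5:147726012-147726261 on the minus strand. That of Flt4 is chr11:49609429-49609678 on the plus strand, and that of Eng is chr2:32646345-32646594 on the plus strand. Capitals mark GGAA, the core recognized by ETS factors of endothelium, on either strand.
Kdr: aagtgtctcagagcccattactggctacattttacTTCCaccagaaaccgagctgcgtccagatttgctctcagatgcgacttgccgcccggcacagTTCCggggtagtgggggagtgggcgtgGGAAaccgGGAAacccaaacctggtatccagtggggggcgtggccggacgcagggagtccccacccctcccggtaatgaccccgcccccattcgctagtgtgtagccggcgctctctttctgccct
Flt1: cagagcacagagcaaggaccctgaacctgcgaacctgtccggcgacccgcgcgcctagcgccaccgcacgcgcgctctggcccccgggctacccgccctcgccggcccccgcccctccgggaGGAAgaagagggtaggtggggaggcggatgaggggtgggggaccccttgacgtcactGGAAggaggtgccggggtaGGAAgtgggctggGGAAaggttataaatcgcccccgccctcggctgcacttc
Flt4: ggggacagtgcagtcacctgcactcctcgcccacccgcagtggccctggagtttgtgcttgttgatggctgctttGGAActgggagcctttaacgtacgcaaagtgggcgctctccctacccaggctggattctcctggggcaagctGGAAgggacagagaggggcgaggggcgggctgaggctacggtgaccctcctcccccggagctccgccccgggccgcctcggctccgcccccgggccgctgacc
Eng: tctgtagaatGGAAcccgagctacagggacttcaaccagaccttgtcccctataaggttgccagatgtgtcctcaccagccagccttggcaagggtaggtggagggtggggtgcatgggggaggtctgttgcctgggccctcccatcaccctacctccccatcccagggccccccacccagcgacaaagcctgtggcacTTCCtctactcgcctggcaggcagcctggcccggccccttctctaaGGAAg
GGAA occurred 4 times in the Kdr window, 4 times in that of Flt1, 2 times in that of Flt4 and 3 times in that of Eng. It was present in 92.0% of 25 windows of the endothelial genes and in 93.4% of all 32851 windows in RefSeq. AGGTCA, the half-site of nuclear receptors, was searched on both strands and did not occur in the 4 windows printed. It occurred in 7 of the 25 windows, or 28.0%, beside 14.0% of all windows. Those were windows of Egfl7, Ehd3, Emcn, Fcgr2b, Nrp1, Robo4 and Stab2, none of which was called by limma or DESeq2. Of all 41 genes, limma called 4.88% lower and DESeq2 19.5%. Whether the half-site went with the calls was not tested. The DR4 element bound by LXR with RXR, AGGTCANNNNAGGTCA, was in 0 of the 25 windows and in 0.0152% of all windows. These are matches of letters, and no binding was measured here.

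Most of the 41 genes had lower levels in LXRDKO livers, but few passed a test. The difference was below 0 for 38 genes and above 0 for 3 (Lyve1, Rspo3 and Robo4), while 50.9% of all 15578 genes tested were lower. The median log2 fold change, LXRDKO minus WT on the scale of log2(normalized count + 1), was −0.47 for the 41 genes and −0.0046 for all genes tested. Their quartiles were −0.64 and −0.17, beside −0.17 and 0.18 for all genes. The geometric mean of the 41 genes was 883 and 819 normalized counts for the WT livers against 674 and 586 for the LXRDKO livers. Both LXRDKO livers thus lay below both WT livers, at 73.9% of their level.

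Cdh5 and Kdr were the members that fell by limma, at an adjusted P value under 0.05. These were 2 of 41, or 4.88%, where 0.186% of all genes tested were called lower. The quasi-likelihood test of edgeR called 2 of the 41 lower, beside 0.191% of its genes. DESeq2, the tool of the study, called 8 lower, or 19.5%, beside 2.03% of the genes to which it gave an adjusted P value. The other 6 were Mmrn2, Flt1, Nr2f2, Flt4, Calcrl and Dnase1l3. No member was called higher by limma, edgeR or DESeq2, which called 0.135%, 0.121% and 1.56% of all their genes higher, and 0 of 41 is near these shares. At an unadjusted limma P value under 0.05, 20 members were lower, or 48.8%, beside 7.50% of all genes, and 0 were higher, beside 5.77% of all genes.

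For 27 of the 41 genes, neither LXRDKO liver reached the lower of the WT livers, a share of 65.9%, beside 23.0% of all genes. Both were above for 1 gene, Rspo3, or 2.44%, beside 21.7% of all genes. In the remaining 13 genes the groups overlapped. For any 1 gene, exact permutation of 2 and 2 livers (two-sided) goes no lower than P = 0.33, and the P values given here therefore lean on the spread pooled across genes by each tool.

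**Figure D1:**
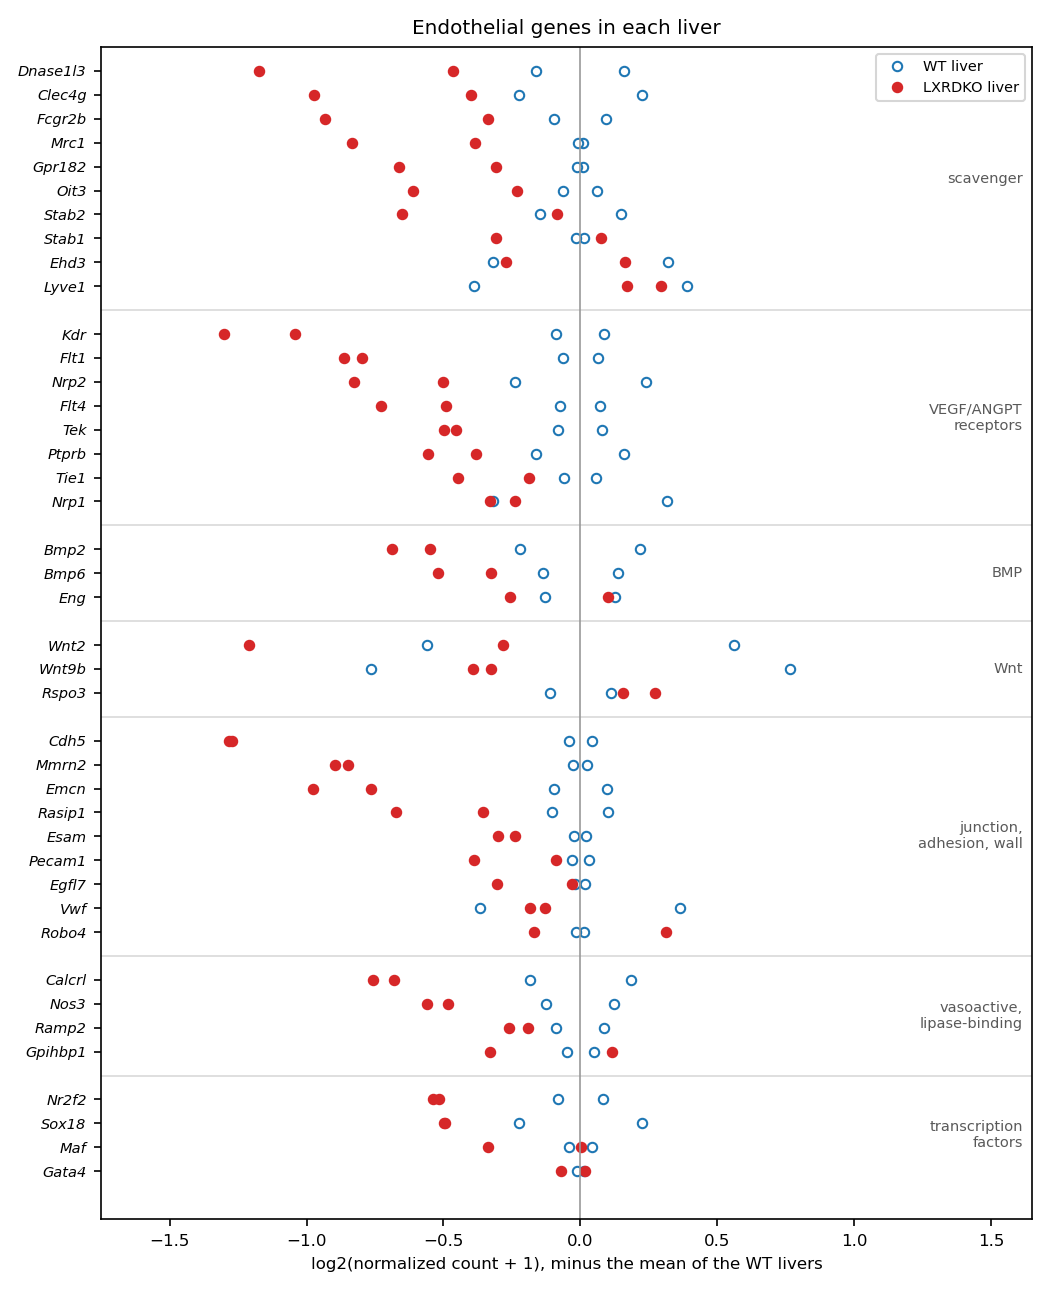
Level of each of the 41 endothelial genes in each liver, as log2(normalized count + 1) minus the mean of the 2 WT livers, grouped by role. Open circles are WT livers and filled circles are LXRDKO livers, and for 27 genes both filled circles lie to the left of both open circles.

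**Figure D2:**
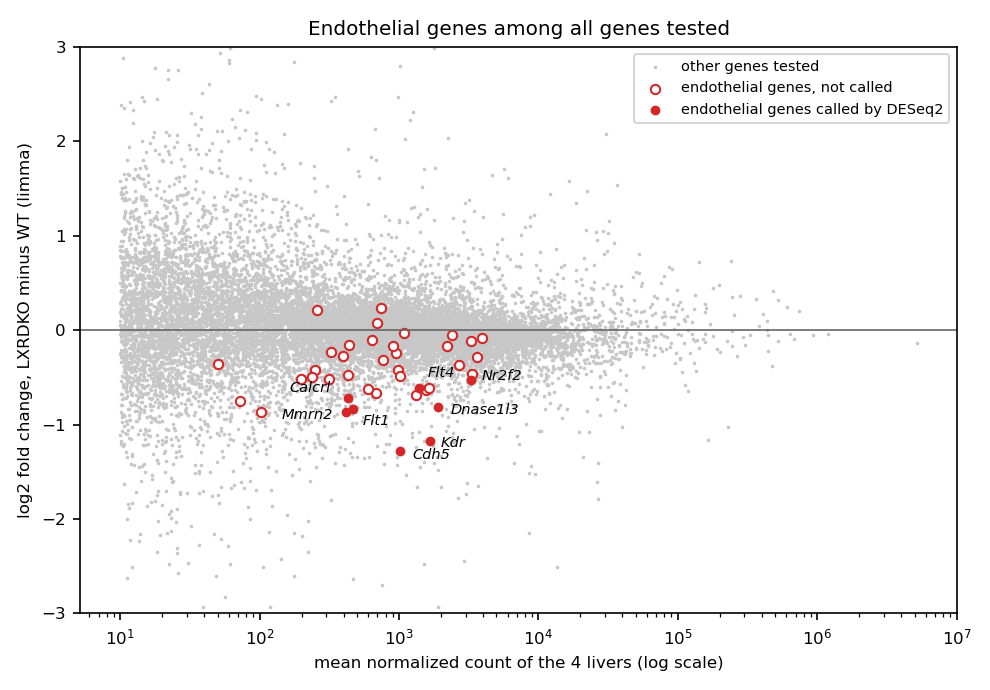
Log2 fold change by limma (LXRDKO minus WT) against the mean normalized count of the 4 livers on a log scale, for all 15578 genes tested, with the 41 endothelial genes in red. The 8 filled points are those called by DESeq2, all below 0, and 49 other genes with an absolute log2 fold change over 3 lie outside the axis.

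Receptors for VEGF and angiopoietins carry the growth and stability signals of vessels, and all 8 in the list had negative fold changes. Their median was −0.54. Kdr (VEGFR2), the main receptor through which VEGF-A acts on endothelium, measured 2447 and 2164 normalized counts in WT livers against 1116 and 934 in LXRDKO livers. Both LXRDKO livers were far below WT, at 44.5% of the WT mean. It differed on the log2 scale by −1.17 (standard error 0.13, adjusted P = 0.0498 by limma), and DESeq2 gave an adjusted P of 4.00e-09. The limma value was close to the threshold and did not pass it under 6 of the other settings with all livers, from 0.0501 with a pseudocount of 0.5 to 0.223 without the trend. The gene is at chr5:75932827-75978458.

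Flt1 (VEGFR1), which binds VEGF-A tightly and limits its supply to Kdr, measured 620 and 568 normalized counts in WT against 341 and 326 in LXRDKO. Flt4 (VEGFR3), the receptor for VEGF-C and VEGF-D, measured 1775 and 1603 in WT against 1200 and 1017 in LXRDKO. For both, the WT livers differed little from each other and the LXRDKO livers did not reach them. The log2 fold change of Flt1 was −0.83 (standard error 0.14), and the adjusted P was 0.108 by limma and 0.00179 by DESeq2. That of Flt4 was −0.61 (standard error 0.13), and the adjusted P was 0.151 by limma and 0.0160 by DESeq2. All 3 VEGF receptor genes were therefore called lower by DESeq2, and Kdr also by limma.

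Neuropilins hold VEGF and semaphorins at the cell surface for these receptors. Nrp2 measured 705 and 981 normalized counts in WT against 468 and 587 in LXRDKO, without overlap. Its log2 fold change of −0.66 (standard error 0.21) had an adjusted P of 0.284 by limma and 0.0934 by DESeq2. Nrp1 had 4924 in WT replicate 1, but 3166 in WT replicate 2, which lay between the 3145 and 3349 of the LXRDKO livers. The fold change of Nrp1 was −0.28 on the log2 scale with all livers and 0.036 without WT replicate 1.

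The angiopoietin receptor Tek (TIE2), which keeps vessels quiescent, measured 526 and 470 normalized counts in WT against 352 and 362 in LXRDKO. Tie1, its partner without a ligand of its own, measured 816 and 885 in WT against 746 and 624 in LXRDKO. Ptprb (VE-PTP), the phosphatase that acts on TIE2 and VE-cadherin, measured 4338 and 3474 in WT against 2982 and 2637 in LXRDKO. The LXRDKO livers were lower for all 3, without overlap, and none passed limma or DESeq2. Their log2 fold changes were −0.48, −0.32 and −0.47, with limma adjusted P values of 0.260, 0.405 and 0.254.

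The ligands of these receptors were measured in the same libraries from a separate list. Of 6 tested, none passed limma or DESeq2, and 1 was higher at an unadjusted limma P value under 0.05, beside 5.77% of all genes. Vegfa, made mainly by hepatocytes, measured 12898 and 13683 normalized counts in WT against 12163 and 12124 in LXRDKO, a log2 fold change of −0.13. Angpt1, the TIE2 agonist, measured 33.1 and 54.3 in WT against 94.0 and 82.5 in LXRDKO, a log2 fold change of 1.04 with an adjusted P of 0.296 by limma and 0.328 by DESeq2. Kdr reads per Vegfa read were 0.190 and 0.158 in WT against 0.0918 and 0.0770 in LXRDKO. Vegfa itself stood at 91.4% of WT.

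Genes of junctions, adhesion and the vessel wall differed widely among themselves, from −1.28 to 0.07 on the log2 scale. Cdh5 (VE-cadherin), the adhesion protein of endothelial adherens junctions, measured 1488 and 1406 normalized counts in WT livers against 598 and 594 in LXRDKO livers. The livers within each genotype were close to each other, and LXRDKO stood at 41.2% of WT. The log2 fold change of Cdh5 was the lowest of the 41, at −1.28 (standard error 0.11, adjusted P = 0.0255 by limma and 9.92e-13 by DESeq2). The gene is at chr8:104101625-104144511.

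Mmrn2, a glycoprotein of the endothelial matrix, measured 551 and 531 normalized counts in WT against 300 and 291 in LXRDKO. It differed on the log2 scale by −0.87 (standard error 0.14), and the adjusted P was 0.0986 by limma and 0.00105 by DESeq2. Emcn, a sialomucin of venous and capillary surfaces, measured 123 and 141 in WT against 66.4 and 77.2 in LXRDKO. Its fold change was as large, −0.87 on the log2 scale, but its standard error of 0.24 was wider, and its adjusted P was 0.232 by limma and 0.198 by DESeq2. Rasip1, a Ras-interacting protein needed for vessel lumens, measured 343 and 396 in WT against 288 and 230 in LXRDKO, a log2 fold change of −0.52 with an adjusted P of 0.330 by limma.

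The other pan-endothelial markers of the group had log2 fold changes from −0.27 to −0.17. Pecam1 (CD31) measured 999 and 1042 normalized counts in WT against 959 and 779 in LXRDKO, at 85.1% of WT. Esam, a tight-junction adhesion molecule, stood at 428 and 441 in WT against 367 and 353 in LXRDKO, at 82.9% of WT. Egfl7, a secreted endothelial matrix factor, stood at 950 and 975 in WT against 943 and 779 in LXRDKO, at 89.4% of WT. In these 3 genes both LXRDKO livers were below WT, yet the adjusted P values were 0.536, 0.475 and 0.662 by limma. Cdh5 reads per Pecam1 read were 1.49 and 1.35 in WT against 0.624 and 0.762 in LXRDKO. This ratio within a library does not depend on how the libraries were scaled.

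The groups overlapped for the last 2 genes of the vessel wall. Robo4, a receptor that stabilizes vessels, measured 679 and 665 normalized counts in WT against 835 and 598 in LXRDKO. Vwf, the clotting factor of larger vessels, measured 589 and 354 in WT against 418 and 402 in LXRDKO.

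Scavenger and endocytic genes are the hallmark of the sinusoidal endothelial cell. Of the 10, 9 had negative fold changes, 6 did not overlap between genotypes, none passed limma (6 were lower at an unadjusted P value under 0.05) and 1 passed DESeq2. Over all genes, 23.0% did not overlap and were lower, 7.50% were lower at an unadjusted P value under 0.05 and 2.03% were called lower by DESeq2. The median log2 fold change of the 10 was −0.45. Dnase1l3, a secreted nuclease that digests DNA from dead cells, measured 2695 and 2157 normalized counts in WT against 1747 and 1069 in LXRDKO. It had the lowest fold change of the group, −0.82 on the log2 scale (standard error 0.25), with an adjusted P of 0.273 by limma and 0.0463 by DESeq2.

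Clec4g (LSECtin), a lectin that binds glycans on pathogens and T cells, measured 1872 and 1372 normalized counts in WT against 1216 and 817 in LXRDKO. Fcgr2b, the inhibitory Fc receptor that clears immune complexes, measured 1996 and 1749 in WT against 1477 and 979 in LXRDKO. Mrc1, the mannose receptor, measured 1987 and 1963 in WT against 1512 and 1107 in LXRDKO. All 3 were lower in each LXRDKO liver than in either WT liver, with LXRDKO replicate 2 lowest. Their log2 fold changes were −0.68, −0.64 and −0.61, with adjusted P values of 0.317, 0.30 and 0.226 by limma and 0.120, 0.129 and 0.0592 by DESeq2. Mrc1 and Fcgr2b are also expressed by macrophages.

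Gpr182, an atypical chemokine receptor, measured 1190 and 1170 normalized counts in WT against 953 and 745 in LXRDKO. Oit3, a marker gene of sinusoidal endothelium, measured 1162 and 1067 in WT against 948 and 728 in LXRDKO. The groups did not overlap for either, and the log2 fold changes were −0.49 and −0.42 with adjusted P values of 0.271 and 0.344 by limma.

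The other 4 scavenger genes overlapped between genotypes. Stab2, the main hyaluronan scavenger of sinusoids, measured 3351 and 2726 normalized counts in WT against 2852 and 1922 in LXRDKO. Its paralog Stab1 measured 3434 and 3362 in WT against 3583 and 2746 in LXRDKO. For both stabilins LXRDKO replicate 2 was low and LXRDKO replicate 1 was within or above the WT range. Lyve1, another hyaluronan receptor, measured 513 and 881 in WT against 757 and 825 in LXRDKO. Ehd3, an ATPase of endocytic recycling, measured 3003 and 1926 in WT against 2695 and 1991 in LXRDKO. In all 4 the spread between livers of one genotype was as large as the difference between genotypes, and limma gave adjusted P values from 0.531 to 0.954.

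The LXRDKO livers differed from each other in this group. The median scavenger gene was 0.44 lower on the log2 scale in LXRDKO replicate 2 than in replicate 1, a gap about as large as the median fold change between genotypes. Across all 41 genes that median was −0.19, with 31 genes lower in replicate 2, beside a median of 0.0024 over all genes tested. Between the WT livers the median of the 41 genes was −0.03, with 25 genes lower in replicate 2. Over all genes tested, 49.7% were lower in LXRDKO replicate 2 than in replicate 1.

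BMP2 and BMP6 from sinusoidal endothelium induce the iron hormone hepcidin in hepatocytes. Bmp2 measured 836 and 616 normalized counts in WT against 491 and 445 in LXRDKO, at 64.4% of WT. Bmp6 measured 259 and 313 in WT against 227 and 198 in LXRDKO, at 74.3% of WT. Both LXRDKO livers were lower for both ligands, with log2 fold changes of −0.62 and −0.42 and adjusted P values of 0.257 and 0.410 by limma. Endoglin (Eng), the endothelial co-receptor for BMP9, measured 4423 and 3708 in WT against 4342 and 3393 in LXRDKO, and the groups overlapped. Kdr reads per Eng read were 0.553 and 0.584 in WT against 0.257 and 0.275 in LXRDKO.

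On the receiving side, 22 BMP receptors, signal carriers and response genes were tested. Hamp2 was the 1 gene of that list called lower by limma, beside 0.186% of all genes. It measured 1231 and 2474 normalized counts in WT against 194 and 139 in LXRDKO, a log2 fold change of −3.40 (adjusted P = 0.0432 by limma, 9.02e-24 by DESeq2). Hamp, which encodes hepcidin and is a paralog of Hamp2, measured 28958 and 35925 in WT against 34512 and 30676 in LXRDKO. Hamp thus stood at 100% of WT and Hamp2 at 8.99%. How reads that match both paralogs were counted is not given, and their part in these values was not tested. Gdf2, which encodes BMP9, the ligand of endoglin made by stellate cells, measured 894 and 711 in WT against 1437 and 1271 in LXRDKO, a log2 fold change of 0.76 (adjusted P = 0.00408 by DESeq2, 0.139 by limma). Of the 22 genes, 11 were below WT in both LXRDKO livers and 3 were above, beside 23.0% and 21.7% of all genes, and 8 overlapped. At an unadjusted limma P value under 0.05, 2 were lower and 1 higher, beside 7.50% and 5.77% of all genes. The median log2 fold change of the 22 genes was −0.10. Among general BMP response genes, Id1, Id2, Smad6, Smad7 and Atoh8 overlapped between genotypes, while Id3, at 1429 and 2163 in WT against 2776 and 2232 in LXRDKO, was above WT in both LXRDKO livers and did not pass (adjusted P = 0.405 by limma).

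Wnt2 and Wnt9b, made by endothelium around central veins, and Rspo3, which amplifies their signal, did not pass limma or DESeq2. Wnt2 measured 127 and 57.7 normalized counts in WT against 70.2 and 36.4 in LXRDKO. Wnt9b measured 90.1 and 30.6 in WT against 39.9 and 41.8 in LXRDKO. For both, the WT livers differed more from each other than the genotypes did. Rspo3 measured 258 and 221 in WT against 266 and 288 in LXRDKO, and it was the member that was higher in both LXRDKO livers, with a log2 fold change of 0.21 and an adjusted P of 0.670 by limma. None of 19 Wnt receptors and hepatocyte targets passed limma or DESeq2. At an unadjusted limma P value under 0.05, 1 was lower and 1 higher. This is near the shares of all genes, 7.50% and 5.77%. Of these 19 genes, 7 were above WT in both LXRDKO livers, or 36.8%, beside 21.7% of all genes, 1 was below and 11 overlapped. The WT livers differed from each other in this list. The median difference of the 19 genes, WT replicate 2 minus WT replicate 1, was −0.55 on the log2 scale. Over all genes tested that median was −0.0027, and the median fold change of the 19 genes between genotypes was 0.31. The target genes Axin2, at 686 and 629 in WT against 815 and 1059 in LXRDKO, and Glul, at 42620 and 24556 in WT against 43956 and 45696 in LXRDKO, were among the 7, although for Glul the margin over WT replicate 1 was small. Cyp2e1, Cyp1a2, Rhbg, Tbx3, Nkd1 and Sp5 overlapped, as did Slc1a2, at 19463 and 10213 in WT against 10346 and 11095 in LXRDKO.

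Vasoactive genes of endothelium set vessel tone and permeability. Calcrl, the receptor that forms the adrenomedullin receptor with RAMP2, measured 468 and 604 normalized counts in WT against 314 and 331 in LXRDKO. It differed on the log2 scale by −0.72 (standard error 0.17), and the adjusted P was 0.201 by limma and 0.0380 by DESeq2. Its partner Ramp2 measured 331 and 373 in WT against 293 and 308 in LXRDKO, a log2 fold change of −0.23 with an adjusted P of 0.613 by limma. Both parts of the receptor were lower in each LXRDKO liver, and Calcrl passed DESeq2 while Ramp2 did not. Whether the genes differed from each other was not tested.

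Nos3, the endothelial nitric oxide synthase, measured 212 and 252 normalized counts in WT against 165 and 157 in LXRDKO, a log2 fold change of −0.52 with an adjusted P of 0.335 by limma. Gpihbp1, which carries lipoprotein lipase to the capillary lumen, measured 640 and 686 in WT against 719 and 526 in LXRDKO and overlapped. Lpl, the lipase that GPIHBP1 carries and a known LXR target, measured 1487 and 3667 in WT against 469 and 372 in LXRDKO, a log2 fold change of −2.48 with an adjusted P of 0.00204 by DESeq2 and 0.111 by limma. Gpihbp1 stood at 93.9% of WT and Lpl at 16.3%. Lpl was the 1 gene called by DESeq2 among 10 partners of these vasoactive and lipase-binding genes, beside 2.03% of all genes called lower. Limma called none of the 10. At an unadjusted limma P value under 0.05, 2 were lower and 1 higher, beside 7.50% and 5.77% of all genes.

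Transcription factors of endothelium gave mixed values. Nr2f2 (COUP-TFII), a nuclear receptor of venous identity, measured 3664 and 4109 normalized counts in WT against 2710 and 2675 in LXRDKO. It differed on the log2 scale by −0.53 (standard error 0.10), and the adjusted P was 0.129 by limma and 0.00991 by DESeq2. Sox18, a factor of vascular and lymphatic development, measured 235 and 321 in WT against 195 and 194 in LXRDKO, a log2 fold change of −0.50 with an adjusted P of 0.395 by limma. Gata4, a regulator of sinusoidal identity, measured 1097 and 1079 in WT against 1037 and 1101 in LXRDKO, the difference nearest to 0 of the 41. Maf (c-MAF), also a factor of sinusoidal cells and macrophages, measured 2269 and 2407 in WT against 2341 and 1848 in LXRDKO.

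Levels were compared between genes per kb of exon, since a longer mRNA yields more reads. In WT livers they ran from 13.4 normalized counts per kb for Wnt9b to 1004 for Eng, with a median of 205. The LXRDKO median was 139 per kb. After Eng, Clec4g (659 per kb) and Dnase1l3 (471 per kb) ranked highest in WT. In LXRDKO livers Dnase1l3 moved from rank 3 to rank 9, Cdh5 from 9 to 19 and Kdr from 19 to 27. Lyve1 moved from rank 20 to rank 11, and Ehd3 from 7 to 3. These ranks are given without a test.

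**Figure D3:**
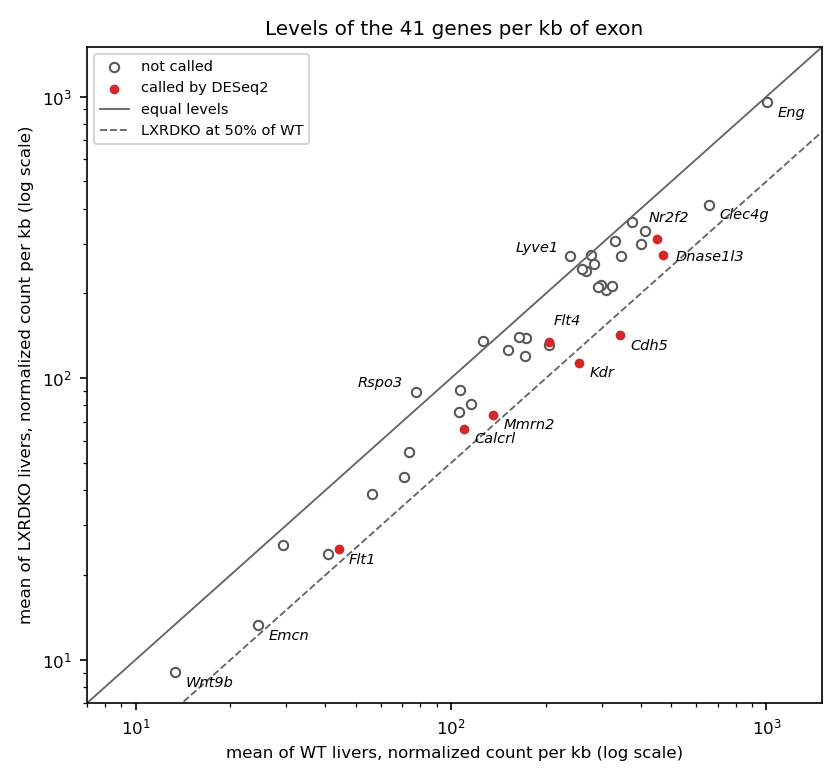
Mean level of each of the 41 genes per kb of exon in the 2 LXRDKO livers against the 2 WT livers, both on log scales. The solid line marks equal levels and the dashed line 50% of WT, below which only Cdh5 and Kdr lie, and the 8 filled points are genes called by DESeq2.

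Endothelial genes outside the 41 were read from a separate list. Of 26 tested, 21 were lower, beside 50.9% of all genes. At an unadjusted limma P value under 0.05, 13 were lower and 1 higher, beside 7.50% and 5.77% of all genes. None passed limma after adjustment. DESeq2 called 5 lower and 1 higher, beside 2.03% and 1.56% of all its genes. The median log2 fold change of the 26 genes was −0.37. Bcl6b, an endothelial transcriptional repressor, measured 170 and 214 normalized counts in WT against 40.8 and 65.4 in LXRDKO, a log2 fold change of −1.86 (adjusted P = 0.000108 by DESeq2, 0.111 by limma). Pcdh12, a protocadherin of endothelial junctions, measured 253 and 264 in WT against 109 and 91.1 in LXRDKO. Arhgef15, a gene of vessel cells, measured 699 and 598 in WT against 358 and 297 in LXRDKO. Both LXRDKO livers were well under the WT livers for these 3 genes. Plxnd1, a semaphorin receptor, measured 2010 and 2285 in WT against 1412 and 1115 in LXRDKO. In contrast, Cav1, the coat protein of caveolae, was called higher, with 145 and 149 in WT against 374 and 234 in LXRDKO (log2 fold change 1.00, adjusted P = 0.0291 by DESeq2, 0.219 by limma).

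Genes linked to capillary-type endothelium, the kind found in vessels other than sinusoids, had values on both sides of 0. Of 10 tested, 7 were higher and 3 lower, and none passed limma. At an unadjusted limma P value under 0.05, 4 were higher and 3 lower, beside 5.77% and 7.50% of all genes. DESeq2 called 2 higher and 1 lower, beside 1.56% and 2.03% of all its genes. Plvap, the diaphragm protein of capillary pores, measured 2522 and 2108 normalized counts in WT against 4410 and 3476 in LXRDKO, a log2 fold change of 0.76 (adjusted P = 0.00183 by DESeq2, 0.143 by limma). Sparcl1, a matrix protein of capillaries, measured 163 and 194 in WT against 330 and 418 in LXRDKO, a log2 fold change of 1.06 (adjusted P = 0.00295 by DESeq2, 0.131 by limma). Cldn5, the claudin of tight capillaries, measured 237 and 275 in WT against 143 and 108 in LXRDKO, a log2 fold change of −1.03 (adjusted P = 0.0191 by DESeq2, 0.160 by limma). Plvap reads per Cdh5 read were 1.69 and 1.5 in WT against 7.37 and 5.85 in LXRDKO. Plvap itself stood at 170% of WT, and Cdh5, the lowest fold change of the 41 genes, at 41.2%. The ratio thus combines both differences.

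Markers of position along the lobule were mostly lower on both sides. All 8 portal-side genes were lower (median −0.45 on the log2 scale), as were 5 of 7 central-side genes (median −0.50). DESeq2 called Ltbp4, a latent TGF-β binding protein of the portal list, lower. From the central list it called Fzd4, a Wnt receptor, lower and Dkk3, a secreted Dickkopf family protein, higher. Limma called no gene of either list, with adjusted P values of 0.190 for Ltbp4, 0.160 for Fzd4 and 0.131 for Dkk3. At an unadjusted limma P value under 0.05, 5 portal-side genes were lower, 3 central-side genes lower and 1 central-side gene higher. Over all genes tested, 7.50% were lower and 5.77% higher at that value. DESeq2 called 2.03% of all its genes lower and 1.56% higher. Ltbp4 measured 3417 and 4081 normalized counts in WT against 2737 and 2579 in LXRDKO, Fzd4 had 6556 and 5670 against 4091 and 4496, and Dkk3 had 83.3 and 84.9 against 184 and 177. Of 11 Notch genes, none was called by limma or DESeq2, and 1 was higher at an unadjusted limma P value under 0.05. The test of edgeR called no gene of any list in which limma called none.

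**Figure D4:**
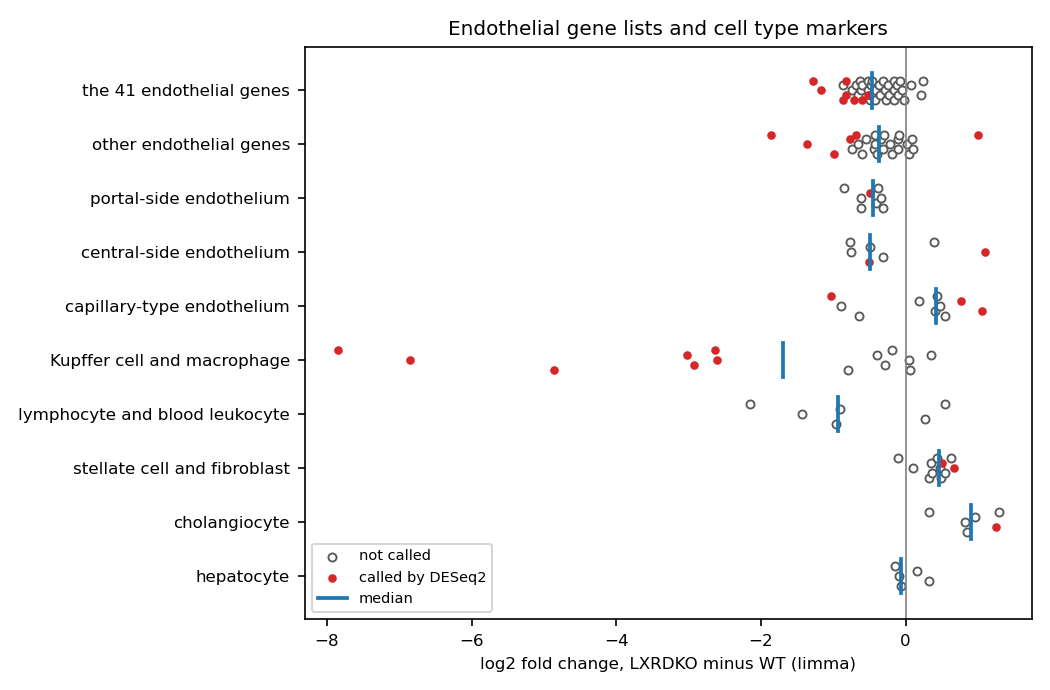
Log2 fold changes by limma (LXRDKO minus WT) of the 41 endothelial genes, of 4 other endothelial lists and of markers of 5 other kinds of liver cell, with 1 point per gene and a blue bar at each median. The medians run from −1.70 for Kupffer cell and macrophage markers to 0.90 for cholangiocyte markers, and the endothelial genes have −0.47.

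Markers of other cell types were read in the same libraries. Of 14 Kupffer cell and macrophage markers, 4 were called lower by limma, beside 0.186% of all genes, and 7 by DESeq2, beside 2.03%. None of the 14 was called higher. Their summed level was 26401 and 32027 normalized counts in WT against 21685 and 14390 in LXRDKO. The 4 were Cd5l, with 2780 and 3293 in WT against 11.4 and 12.9 in LXRDKO, Cd163, Clec4f and Marco, and DESeq2 also called Timd4, which was at 0 in LXRDKO replicate 2. The general macrophage genes Csf1r, C1qa, C1qb, C1qc, Cd68 and Adgre1 were not called. Of these, Adgre1 was below WT in both LXRDKO livers, at 500 and 628 normalized counts in WT against 430 and 242 in LXRDKO. Its unadjusted limma P value was 0.0383. Of the 14 markers, 8 were lower at an unadjusted limma P value under 0.05, beside 7.50% of all genes. Like the endothelial genes, the Kupffer cell and macrophage markers were lower in LXRDKO replicate 2 than in replicate 1, by a median of 0.74 on the log2 scale.

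Stellate cell and fibroblast markers were above WT in both LXRDKO livers for 8 of 12 genes, beside 21.7% of all genes, with a summed level of 22275 and 26323 in WT against 31058 and 33361 in LXRDKO, and DESeq2 called Dcn and Reln higher, beside 1.56% of all its genes. Limma called none of the 12, with adjusted P values of 0.145 for Dcn and 0.157 for Reln. At an unadjusted limma P value under 0.05, 7 of the 12 were higher, beside 5.77% of all genes. Cholangiocyte markers were above WT for 6 of 6 genes, with sums of 2092 and 3628 in WT against 4617 and 5477 in LXRDKO, and DESeq2 called Epcam higher. Limma called none of the 6 (0.155 for Epcam), with 3 higher at an unadjusted P value under 0.05. The 5 hepatocyte markers Alb, Ttr, Apoa1, Serpina1c and Cps1 had a median log2 fold change of −0.07, and none was called or had an unadjusted limma P value under 0.05. Of 6 lymphocyte and blood leukocyte markers, 4 were below WT in both LXRDKO livers, beside 23.0% of all genes. Limma gave 3 of these 4 an unadjusted P value under 0.05, beside 7.50% of all genes lower at that value. None of the 6 was called. No marker of the stellate, cholangiocyte or hepatocyte lists was at 0 in any liver. The part of these shifts in the endothelial values was not tested.

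Few calls held when 1 liver was removed, which leaves 1 genotype with a lone library assumed to vary like the others. Without LXRDKO replicate 1, or without LXRDKO replicate 2, limma called 0 of the 41 genes, with adjusted P values for Cdh5 of 0.151 and 0.126 and for Kdr of 0.151 and 0.173. At an unadjusted limma P value under 0.05, 21 and 11 members were then lower. Without WT replicate 1, or without WT replicate 2, the number called was 2, and without WT replicate 2 the unadjusted P value was under 0.05 for 1 member that was higher. By DESeq2, Cdh5 and Kdr were called with each of the 4 livers removed, and Flt1, Flt4, Mmrn2, Calcrl and Nr2f2 in none of these. Dnase1l3 was called in 2 of the 4. Mrc1, Fcgr2b and Clec4g, which are not called with all livers, were called by DESeq2 without LXRDKO replicate 1, and Nrp2 without WT replicate 1. The log2 fold changes of all 8 genes stayed below 0 with each liver removed. Cdh5 ran from −1.32 to −1.24, Kdr from −1.30 to −1.04, Mmrn2 from −0.90 to −0.85 and Flt1 from −0.89 to −0.77. Flt4 ran from −0.73 to −0.49, Nr2f2 from −0.61 to −0.44 and Calcrl from −0.90 to −0.53. The range was widest for Dnase1l3, from −1.17 to −0.46. The median of the 41 genes ran from −0.52 without LXRDKO replicate 1 to −0.33 without LXRDKO replicate 2.

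**Figure D5:**
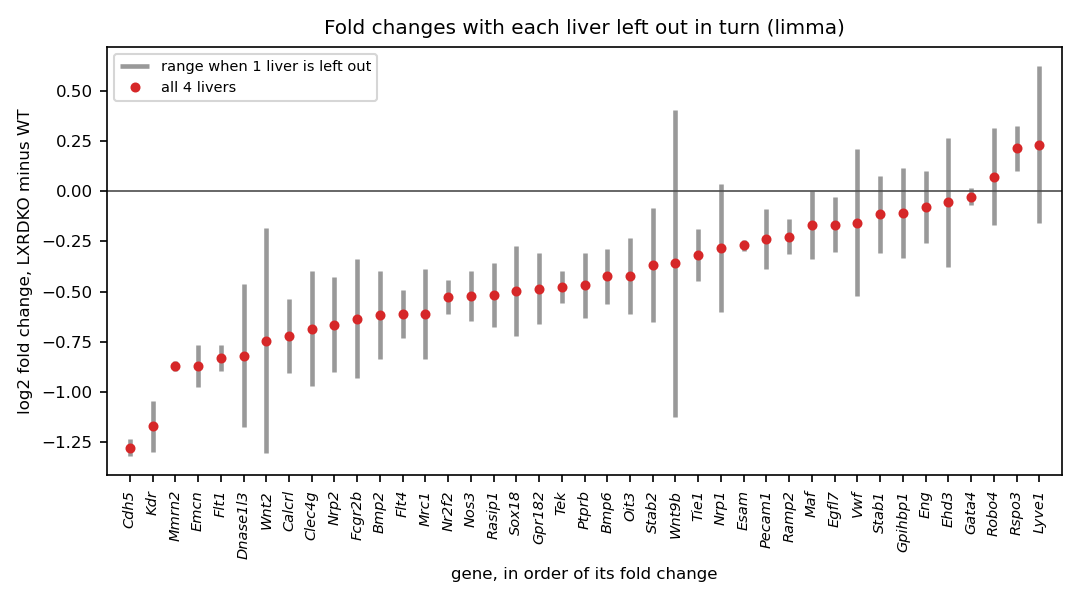
Log2 fold change by limma (LXRDKO minus WT) of each of the 41 genes with all 4 livers (points) and its range over the fits that leave out 1 liver (bars). The bars of Cdh5, Kdr and Mmrn2 are short and far below 0, while that of Wnt9b runs from −1.12 to 0.41.

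Exons of 15 of the 41 genes overlap those of another annotated gene. The partners with the highest levels were Txndc5 at Bmp6, Fpgs at Eng, Agpat2 at Egfl7 and Zbtb39 at Gpr182, all on the opposite strand, with overlaps of 224, 61, 64 and 74 bases. The setting for strand in the counting of reads is not given in the sources used here, so reads of such partners could not be told apart at those bases.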

How the data were processed

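RNA-Seq of whole liver was analysed, and the ATAC-Seq of the same series was not analysed here. Per the labels and the methods of the study, polyadenylated RNA was sequenced and checked with FastQC, and reads were aligned to mm10 with STAR 2.6.0c. The counting tool, the annotation release and the strand setting are not given in the sources used here. The deposited values are a signal, normalized counts that the authors made by dividing reads per gene by a DESeq2 size factor for each library. All values (100%) were whole multiples of 1 read within 0.01, so reads were recovered, and size factors ran from 0.877 to 1.18. Depth is 55772659 to 72842744 reads on genes per liver.

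The test used limma 3.58.1 (R 4.3.3) on log2(normalized count + 1), moderated by empirical Bayes with a trend, for the 15578 genes whose mean was 10 normalized counts or more. Adjustment was by Benjamini-Hochberg across all of these, and the threshold was 0.05. For weakly expressed genes this scale makes changes look smaller. Recovered reads were also tested with DESeq2 1.42.0 and by quasi-likelihood in edgeR 4.0.16. The limma, DESeq2 and edgeR fits were tried on simulated data. DESeq2 was first run at a filtering level of 0.05, and its default of 0.1, used here, was adopted after those results had been seen, to match earlier processing of these data. Each level called 8 of the 41 genes. Other alternatives were pseudocounts, filters, scalings, moderation, a replicate block and each liver left out. Same-numbered livers did not deviate together (correlation 0.0031 across genes), and the labels do not pair the mice. P values rest on the spread between these livers, which each tool pools in part across genes.

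Exon lengths and positions came from GENCODE M21 on GRCm38, the assembly of mm10, which held 24987 of the gene identifiers but not 23 others, and upstream sequences from RefSeq. The 41 genes and all lists were chosen with earlier results of these data known. Values in each liver are given for every member called by limma or DESeq2, or with no overlap between genotypes and an absolute log2 fold change of at least 0.3, and for at least 1 member of each of 7 role groups. In other lists, genes called by limma and up to 5 called by DESeq2 are named. Lists of red cell, platelet and mesothelial markers were examined as well.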

Additional observations from a re-analysis of the deposited data

How the results depend on the processing

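The number of the 41 genes called by limma was 2, and it was 1 with a pseudocount of 0.5, without a filter, with a minimum mean of 50, with upper-quartile scaling and with scaling to the library total, and 0 without the trend, Cdh5 being the gene kept where 1 was left. It was 8 by DESeq2 on recovered reads and 0 to 2 with each liver left out. The number of all genes called by limma was 50, and it was 25 with a minimum mean of 50, 1 without the trend, 567 by DESeq2, and 2 to 262 with each liver left out. With the replicate number as a replicate block, limma called 2 of the 41 genes and 90 genes in all, and DESeq2 called 5 of the 41. The numbers do not pair the mice. The members called by DESeq2 also numbered 8 at a filtering level of 0.05 (580 genes called in all), which was run before the default was adopted. They were 2 to 6 with each liver left out, an alternative chosen after seeing the data. The genes with no LXRDKO liver up to the lower WT liver numbered 27 with upper-quartile scaling and 25 with scaling to the library total, also chosen after seeing the data. The median of the 41 genes was −0.52 to −0.33 with each liver left out and −0.47 to −0.41 under the other settings. Scaling moved the median of all genes by −0.0034 (upper quartile) and 0.055 (library total). The median level in WT was 205 normalized counts per kb of exon and 270 with the length of the longest transcript.

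Of the 41 genes, 29 were lower and 1 (Rspo3) higher under all 15 settings, and 11 had both directions, none of them called. With scaling to the library total, Ehd3 was at 0.00020 and Gata4 at 0.028. With each liver left out in turn, the lowest and highest values of the genes that turned were −0.31 and 0.077 for Stab1, −0.16 and 0.62 for Lyve1, −0.37 and 0.27 for Ehd3, −0.60 and 0.036 for Nrp1, −0.26 and 0.10 for Eng, −1.12 and 0.41 for Wnt9b, −0.17 and 0.31 for Robo4, −0.52 and 0.21 for Vwf, −0.33 and 0.12 for Gpihbp1, −0.070 and 0.017 for Gata4, and −0.34 and 0.0023 for Maf. The cause was not tested. With 2 livers per genotype, differences under about the spread between livers were not detectable.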

Other observations

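Red cell, platelet and mesothelial markers were also read in the 4 livers. All 5 red cell genes overlapped between genotypes, with Hbb-bs at 459 and 1562 normalized counts in WT against 1011 and 1007 in LXRDKO, and none was called by limma or DESeq2 or had an unadjusted limma P value under 0.05. Of the platelet genes, Pf4 had 6.84 and 20.4 in WT against 50.3 and 74.0 in LXRDKO, a log2 fold change of 2.26 (adjusted P = 0.0440 by DESeq2, 0.205 by limma), while Itga2b had 209 and 220 in WT against 178 and 174 in LXRDKO. The 4 mesothelial genes had a median log2 fold change of −0.06. Vwf, which platelets also carry, overlapped between genotypes.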
